A study of Mus musculus with 11 samples.

Results

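Tbr1, a T-box transcription factor, is best known for its part in the cerebral cortex, and 9 genes that have been tied to it there as targets or as antagonists were followed here in a retinal cell. The genes, Reln, Auts2, Cntnap2, Fezf2, Bcl11b, Nr4a2, Rorb, Sox5 and Nfia, are 9 of the 24421 genes counted. They were chosen by symbol, for their ties to Tbr1 in cortex, with earlier results of these data known. The samples were pools of 100 J-RGCs, a type of retinal ganglion cell, taken by flow cytometry from retinas of postnatal day 4 to 5 on a mixed C57BL/6 and CD1 background, with a green fluorescent reporter from a transgenic line that marks these cells. The mutants were 4 Tbr1 KO mice, which gave 6 libraries, and the controls were 4 WT mice, which gave 5. Tbr1 KO animals a and b and WT animal b gave a pair of pools each, and every other animal gave 1. No source used here names the Tbr1 allele, the promoter behind the reporter or the sex of the animals. Counts were summed per animal, so that 4 animals stood against 4, and levels are TMM-normalised CPM, a count scaled to a common library total.

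In the newborn neurons of cortical layer 6, Tbr1 favours the fate of neurons that project to the thalamus and holds down the programme of neurons that project to the spinal cord, which Fezf2 and Bcl11b drive. Tbr1 binds near Reln and Auts2 in cortex, and both depend on it there. Sox5 works beside Tbr1 in deep-layer neurons and restrains Fezf2, Nr4a2 marks subplate cells, and Rorb marks layer 4. Several of these genes are also used in the retina for other ends, Rorb in photoreceptor and interneuron development and Nfia in late progenitors and glia among them.

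The stretch of 250 bases before the RefSeq gene start is shown for Reln and Bcl11b, the members with the largest shift relative to their standard error in each direction, with the sequences from RefSeq GRCm38.p6 given 5′ to 3′ along each gene. Reln lies at chr5:22344706-22344955 and Bcl11b at chr12:108003415-108003664, both on the minus strand. Capitals mark GTGTGA, 6 letters from the core of the T-box site, which is absent from the Reln window.
Reln: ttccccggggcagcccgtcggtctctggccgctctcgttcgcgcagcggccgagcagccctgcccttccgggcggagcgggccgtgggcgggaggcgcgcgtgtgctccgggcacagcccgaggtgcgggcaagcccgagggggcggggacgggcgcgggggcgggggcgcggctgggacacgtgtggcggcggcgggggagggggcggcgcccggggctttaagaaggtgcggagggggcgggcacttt
Bcl11b: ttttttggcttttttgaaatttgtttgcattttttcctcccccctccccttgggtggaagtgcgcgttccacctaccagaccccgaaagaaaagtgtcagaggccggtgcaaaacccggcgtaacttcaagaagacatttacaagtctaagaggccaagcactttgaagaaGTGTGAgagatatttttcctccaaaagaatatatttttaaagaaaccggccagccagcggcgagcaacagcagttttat
Windows of this kind were found for 8 of the 9 genes, all but Auts2, and 2 of the 8 had a second start, which made 10 windows. The 7-letter core GGTGTGA, searched on both strands, was in 0 of the 10 windows and in 3.33% of all 32851 windows. The shorter GTGTGA, contained in it and added after that result was seen, was in 1 window, that of Bcl11b, 79 bases before the gene start, and in 12.3% of all windows. A match is a match of letters, and binding was not measured.

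The libraries held 15615581 to 34564970 reads counted over genes in Tbr1 KO mice and 8609845 to 34718693 in WT mice. Pan-ganglion cell markers were abundant in both genotypes, with summed levels of the 14 listed genes of 16442 to 18419 CPM in Tbr1 KO animals and 15904 to 18360 CPM in WT animals. Single markers were less even. None of the 14 passed in edgeR, but 7 had an unadjusted p under 0.05, beside 7.09% of all tested genes. Pou4f2 (163 against 282 CPM, means of Tbr1 KO and WT animals, edgeR adjusted p 0.0681) and Thy1 (316 against 418 CPM) were lower in every mutant. Such lack of overlap held for 2 of 14, beside 5.06% of all tested genes. Pou4f1 and Isl1 were also lower by mean, and Nefl, Nefm and Nrn1 higher. These markers were named after their values were seen. Jam2, the adhesion molecule that names the type, was at 87.4 to 130 CPM in Tbr1 KO animals and at 452 to 619 CPM in WT animals. Tbr1 transcripts were still counted, at 94.2 to 145 CPM in Tbr1 KO animals and 155 to 193 CPM in WT animals, and reads from exons that the allele leaves in place would be counted in the same row, so this row does not check the genotype labels. In edgeR its log2 fold change was -0.50 ± 0.15 (SE), with an adjusted p of 0.369 over all tested genes.

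No gene of the set passed the test. Of the 9 genes, 8 had enough reads to be tested, and 0 of 8 passed a Benjamini-Hochberg adjusted p of 0.05 in the edgeR quasi-likelihood fit, where 0.287% of all 13957 tested genes did (0.086% as higher and 0.201% as lower in Tbr1 KO animals). DESeq2 called 0 of the 8 as well. Of the 8, 4 had positive and 4 negative log2 fold changes, with a median of 0.02 beside a median of -0.00071 over all tested genes. Tbr1 KO and WT animals overlapped for all 8, while 5.06% of all tested genes had no overlap (2.58% with every Tbr1 KO animal above every WT animal and 2.48% with every one below). Reln, Auts2 and Bcl11b had an unadjusted p under 0.05, as did 7.09% of all tested genes. Fezf2, the gene left out by the filter on low counts, was counted in few libraries. In pools of sorted cells, fewer cells with a transcript and less of it per cell cannot be told apart.

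**Figure D1:**
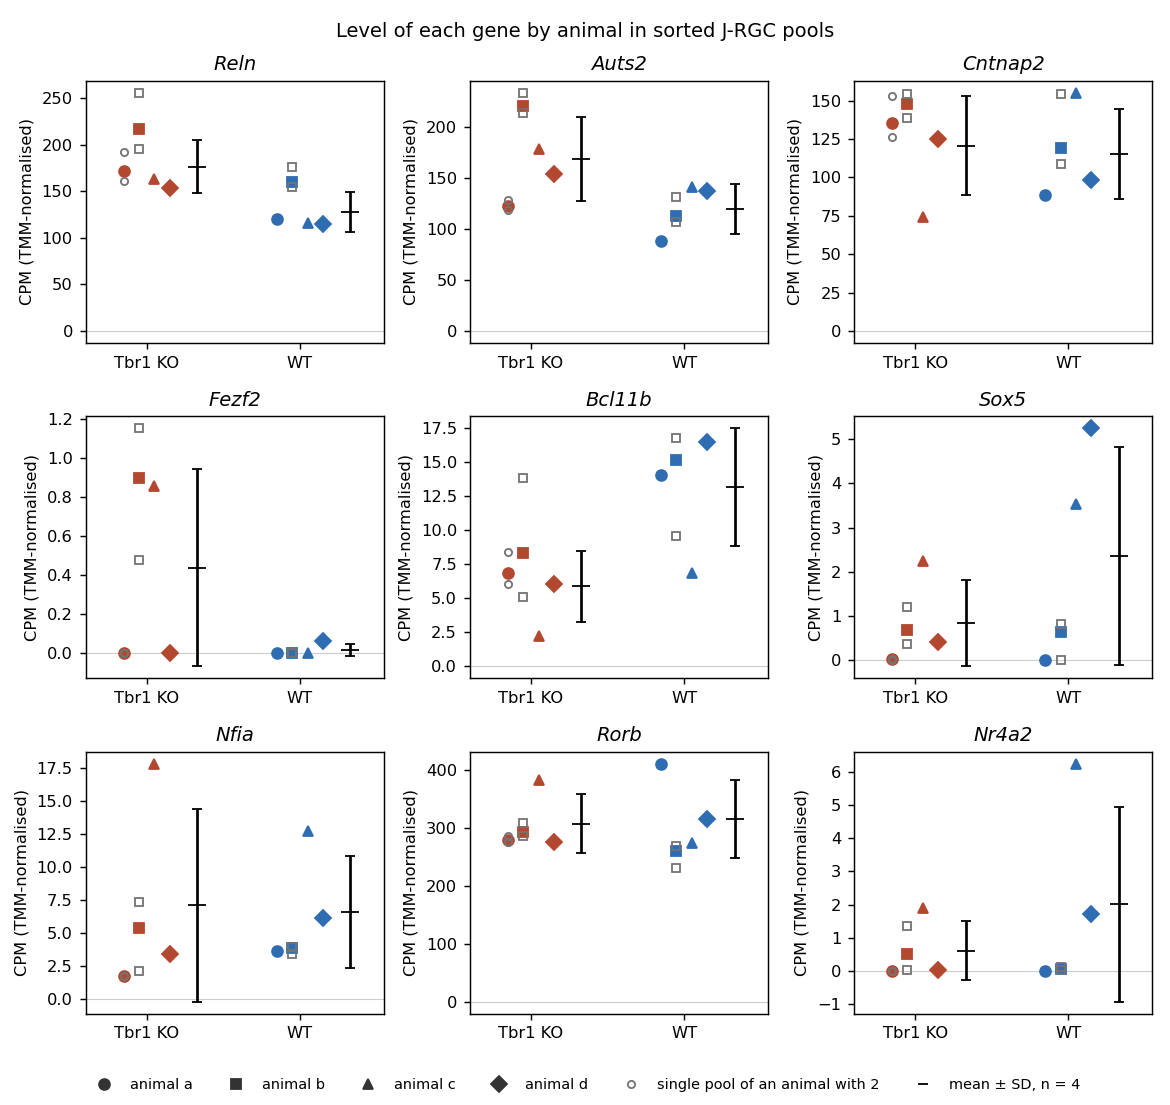
Level of each of the 9 genes in TMM-normalised CPM (vertical axes, each panel on its own scale) in Tbr1 KO animals (red, left) and WT animals (blue, right). Filled symbols are animals, open grey symbols are single pools of the animals that gave 2, and bars are mean ± SD over 4 animals. In every panel the ranges of the genotypes overlap, with Reln, Auts2 and Bcl11b showing the clearest offset.

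Measured per kilobase of annotated exon, which allows genes of different length to be set side by side, the 9 genes spanned a wide range of levels. Rorb was highest at 27.8 ± 4.57 CPM per kb in Tbr1 KO animals and 28.5 ± 6.14 CPM per kb in WT animals (SD, n = 4 each), and 85.5% of 13397 ranked genes lay below its WT level. Cntnap2 came next at 11.8 ± 3.15 CPM per kb in Tbr1 KO animals and 11.2 ± 2.87 CPM per kb in WT animals. Reln and Auts2 followed close together, at 7.44 ± 1.18 and 7.38 ± 1.82 CPM per kb in Tbr1 KO animals and at 5.37 ± 0.912 and 5.24 ± 1.08 CPM per kb in WT animals. Among WT animals these steps did not overlap, except that Reln and Auts2 lay within each other's spread. Bcl11b was at 0.724 ± 0.322 CPM per kb in Tbr1 KO animals and 1.62 ± 0.533 CPM per kb in WT animals, below Auts2 in every animal and overlapping with Nfia, the next in order. Nfia, Nr4a2, Sox5 and Fezf2 had WT means of 0.605, 0.494, 0.164 and 0.00515 CPM per kb, and neighbours among these did not differ beyond their spread. The exon length used was the union over all annotated transcripts, so genes with many unused exons are understated.

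Reln encodes reelin, a large glycoprotein that neurons secrete and that guides the placement of migrating cells. It lies on GRCm38 chromosome 5, 21884454 to 22344702, on the minus strand. Its level was 172, 217, 163 and 154 CPM in Tbr1 KO animals a to d and 120, 160, 116 and 115 CPM in WT animals a to d. WT animal b, the highest of the controls, lay above Tbr1 KO animal d and was the one control that overlapped with the mutants, of which 3 of 4 lay above all WT animals. The log2 fold change was 0.47 ± 0.15 (SE), with a 95% interval of 0.14 to 0.80 and an edgeR adjusted p of 0.462, and permuting log2 CPM over animals (exact, two-sided) gave p = 0.0571. The pools of 1 animal were at 161 and 192 CPM in Tbr1 KO animal a, 195 and 256 CPM in Tbr1 KO animal b, and 155 and 176 CPM in WT animal b. Their log2 differences, 0.18 to 0.39 in size, were smaller than the difference between genotypes. Without WT animal b the log2 fold change was 0.60 ± 0.14 with an edgeR adjusted p of 0.283.

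The other genes of the reelin pathway gave no call either. Of 12 listed receptors, adaptors, kinases and effectors, all 12 were tested and 0 passed in edgeR or DESeq2, 2 had an unadjusted p under 0.05, beside 7.09% of all tested genes, and the median log2 fold change was 0.03. Dab1, the adaptor that reelin receptors use to pass the signal on, was the one gene of that list whose genotypes did not overlap, at 54.2 to 60.7 CPM in Tbr1 KO animals and 34.3 to 46.3 CPM in WT animals, and 1 of 12 stands beside 5.06% of all tested genes. Its log2 fold change was 0.54 ± 0.17 (SE) with an edgeR adjusted p of 0.405. Of the receptors, Lrp8 was at 28.7 ± 3.88 CPM in Tbr1 KO animals and 22.4 ± 5.18 CPM in WT animals, as mean ± SD of 4 animals each. Vldlr was at 40.5 to 73.0 CPM in Tbr1 KO animals and 69.7 to 75.4 CPM in WT animals. Limk1, a kinase that acts on cofilin, was at 133 ± 28.8 CPM in Tbr1 KO animals and 94.5 ± 10.2 CPM in WT animals, a log2 fold change of 0.49 ± 0.17 (SE) with an edgeR adjusted p of 0.493. Reelin ligand, adaptor and both named receptors were all counted in the same pools.

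Auts2 encodes a nuclear protein that joins a variant Polycomb complex and has been linked to gene activation in neurons. It spans 1106 kb of chromosome 5, 131437333 to 132543344, on the minus strand. Its level was 122, 221, 179 and 154 CPM in Tbr1 KO animals a to d and 88.1, 113, 141 and 138 CPM in WT animals a to d. Tbr1 KO animal a lay within the range of the controls, and the other 3 mutants lay above all of them. The log2 fold change was 0.49 ± 0.20 (SE), with a 95% interval of 0.07 to 0.92 and an edgeR adjusted p of 0.589, and the exact two-sided permutation p was 0.114. With the photoreceptor marker level as a covariate it was 0.27 ± 0.19, and without Tbr1 KO animal b, the highest, it was 0.34 ± 0.19.

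None of 10 genes of the Polycomb complex that holds Auts2 passed the test in edgeR or DESeq2. Of the 10, 0 had an unadjusted p under 0.05, beside 7.09% of all tested genes. The median log2 fold change was -0.01, with 5 members on either side of 0. Rybp, a subunit of such complexes, was at 15.7 ± 4.79 CPM in Tbr1 KO animals and 9.40 ± 2.58 CPM in WT animals (SD, n = 4 each), and Pcgf3, a ring finger subunit, at 24.3 to 38.8 CPM in Tbr1 KO animals and 5.04 to 40.3 CPM in WT animals. On the log2 scale Yaf2 stood at 0.20 ± 0.20 and the acetyltransferase gene Ep300 at -0.26 ± 0.24 (fold change ± SE). Of the close relatives of Auts2, Fbrs was at 8.37 ± 4.29 CPM in Tbr1 KO animals and 13.0 ± 6.33 CPM in WT animals.

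Cntnap2 encodes a neurexin-like membrane protein that gathers Kv1 potassium channels beside the node of Ranvier. The gene spans 2244.9 kb of chromosome 6, 45059357 to 47304213, on the plus strand. Its level was 135, 148, 74.2 and 125 CPM in Tbr1 KO animals a to d and 88.5, 119, 155 and 98.3 CPM in WT animals a to d. The lowest animal was a mutant and the highest a control, and the genotypes covered nearly the same range. The log2 fold change of 0.07 ± 0.22 (SE) had a 95% interval of -0.42 to 0.55 and an edgeR adjusted p of 0.991.

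Of 9 genes analysed from the juxtaparanodal complex of Cntnap2, 1 rose and 0 fell, beside 0.086% of all tested genes called as higher and 0.201% as lower. The list was chosen with earlier results of these data known, so this count is a description and not a test. Kcna1, a Kv1 channel subunit, had 4.29 ± 1.59 CPM in Tbr1 KO animals (SD, n = 4) and 0 counts in every WT animal, with an edgeR adjusted p of 0.0350 over all tested genes. That call held without WT animal a (adjusted p 0.0292 in edgeR) and was lost when any other single animal was left out (0.0679 for WT animal c, 0.0715 for Tbr1 KO animal d, 0.0785 for WT animal d, 0.0970 for WT animal b, and 0.145 to 0.154 for Tbr1 KO animals a, b and c). Adam22, a membrane protein found with these channels, did not overlap between genotypes, at 127 to 149 CPM in Tbr1 KO animals and 66.5 to 112 CPM in WT animals. Its log2 fold change was 0.47 ± 0.17 (SE) with an edgeR adjusted p of 0.506. Such lack of overlap held for 2 of the 9, Kcna1 and Adam22, beside 5.06% of all tested genes. An unadjusted p under 0.05 in edgeR was seen for 3 of the 9, beside 7.09% of all tested genes. Kcna2 was at 17.1 ± 8.61 CPM in Tbr1 KO animals and 23.3 ± 4.57 CPM in WT animals, and the auxiliary subunit Kcnab1 at 25.7 ± 10.6 CPM in Tbr1 KO animals and 11.8 ± 8.24 CPM in WT animals (SD, n = 4 each). Among relatives, Cntnap1 was at 43.3 ± 12.7 CPM in Tbr1 KO animals and 29.6 ± 14.3 CPM in WT animals.

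Fezf2 and Bcl11b encode zinc finger factors of the corticospinal programme that Tbr1 opposes in cortex. Fezf2 (chromosome 14, 12342094 to 12348189, minus strand) was near the limit of detection. It had 40 and 10 counts in the pools of Tbr1 KO animal b, 29 counts in Tbr1 KO animal c and 0 in the other 3 Tbr1 KO libraries, against 2 counts in WT animal d and 0 in the other 4 WT libraries. A count of 0 allowed up to 3 counts per library, which is 0.0866 to 0.349 CPM. Over the group, 79 counts in Tbr1 KO animals stood against 2 in WT animals, a ratio of 30.8 with an exact 95% counting interval of 8.25 to 259. That interval covers counting error only, and the mutants themselves split, with 0.897 and 0.860 CPM in Tbr1 KO animals b and c and no reads in a and d. The exact two-sided permutation test over animals gave p = 0.429, and in edgeR with no filter on low counts the adjusted p was 0.580.

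Bcl11b (chromosome 12, 107910403 to 108003602, minus strand) was counted in all 11 libraries. Its level was 6.84, 8.34, 2.22 and 6.08 CPM in Tbr1 KO animals a to d and 14.1, 15.2, 6.82 and 16.5 CPM in WT animals a to d. All but 1 of the controls lay above every mutant, and WT animal c lay among the mutants. Its log2 fold change was -1.16 ± 0.46 (SE), 2.24-fold lower in Tbr1 KO animals, with a 95% interval of -2.16 to -0.16, an edgeR adjusted p of 0.593 and an exact two-sided permutation p of 0.0857. Pools of the same animal differed widely too, with 5.08 and 13.8 CPM in the pools of Tbr1 KO animal b, 6.02 and 8.40 CPM in those of Tbr1 KO animal a, and 16.7 and 9.54 CPM in those of WT animal b. In Tbr1 KO animal b this gap, 1.45 on the log2 scale in size, was larger than the one between genotypes.

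Sox5, an SRY-box factor of deep-layer neurons and subplate, lies on chromosome 6, 143828425 to 144781977, on the minus strand. Its level was 0.0223, 0.682, 2.25 and 0.407 CPM in Tbr1 KO animals a to d and 0, 0.647, 3.54 and 5.24 CPM in WT animals a to d. WT animals c and d were the highest, and each genotype held an animal with 1 count or none. For Sox5 the log2 fold change was -1.49 ± 1.53 (SE), with a 95% interval of -4.82 to 1.85 and an edgeR adjusted p of 0.941. WT animal b shows how uneven it was between pools, with 25 counts in 1 pool and 0 in the other.

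Nfia (chromosome 4, 97772734 to 98118874, plus strand) encodes a nuclear factor I protein that promotes glial fate and late progenitor identity. Its level was 1.74, 5.37, 17.8 and 3.45 CPM in Tbr1 KO animals a to d and 3.63, 3.83, 12.7 and 6.12 CPM in WT animals a to d. Animal c was the highest in each genotype, and the rest lay between 1.74 and 6.12 CPM. Its log2 fold change was 0.11 ± 0.70 (SE), with a 95% interval of -1.43 to 1.64 and an edgeR adjusted p of 0.997. Its paralogue Nfic was at 33.3 ± 6.51 CPM in Tbr1 KO animals and 30.4 ± 5.82 CPM in WT animals (SD, n = 4 each). Of its exon bases, 4 are shared with E130114P18Rik, which runs the other way, and no source used here says whether counting took account of strand.

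Nr4a2 (chromosome 2, 57106830 to 57124003, minus strand), an orphan nuclear receptor of subplate and dopamine neurons, was uneven between animals too. It had 0, 0.520, 1.90 and 0.0313 CPM in Tbr1 KO animals a to d and 0, 0.0518, 6.24 and 1.73 CPM in WT animals a to d. In Tbr1 KO animal b, 28 of its 29 counts came from 1 of the 2 pools. Its log2 fold change was -1.71 ± 1.86 (SE) with an edgeR adjusted p of 0.941, and without WT animal c, which held 215 of the 272 WT counts, it was 0.04 ± 2.10.

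Markers of other retinal cells varied between animals too. By sum, Tbr1 KO animal c was the highest of all animals for photoreceptor, bipolar (265 CPM) and Müller glia and progenitor (798 CPM) markers. Tbr1 KO animal b was the highest for amacrine (852 CPM), Tbr1 KO animal a for horizontal cell (43.7 CPM) and WT animal a for non-neural markers (72.1 CPM). Tbr1 KO animal c, the highest of all for Nfia and the highest mutant for Nr4a2 and Sox5, had 1258 CPM summed over the 14 photoreceptor markers, where the other mutants had 69.5 to 328 CPM and WT animals 80.5 to 381 CPM. WT animal c, the highest control for Nfia and the highest animal for Nr4a2, had 140 CPM of photoreceptor markers, below WT animal d at 381 CPM. Its bipolar and Müller sums were the lowest of the controls, at 54.0 and 350 CPM, with WT animal a at 54.2 CPM for bipolar markers. By mean log2 level WT animal a was the lowest control for both lists. WT animal c had the highest amacrine sum of the controls, at 547 CPM, and the highest amacrine mean log2 level of all animals, at 2.92. Chat, Th and Gfap, the last from the non-neural list, were highest in WT animal c too, at 2.29, 1.80 and 6.82 CPM. Of the photoreceptor markers 13 were tested, each with a fold change above 0 on the log2 scale and none called. Arr3, a cone marker, had reads in Tbr1 KO animal c alone. The 8 bipolar markers summed to 55.1 to 265 CPM in Tbr1 KO animals and 54.0 to 91.9 CPM in WT animals, and 3 of 3 tested were positive with 0 called. The 9 amacrine markers summed to 609 to 852 CPM in Tbr1 KO animals and 295 to 547 CPM in WT animals. Their mean log2 level was 2.03 ± 0.472 in Tbr1 KO animals and 2.02 ± 0.627 in WT animals (SD, n = 4 each, exact two-sided permutation p = 0.971), and Chat was at 0 to 0.0359 CPM in Tbr1 KO animals and 0 to 2.29 CPM in WT animals, and Th at 0 to 0.0446 CPM in Tbr1 KO animals and 0 to 1.80 CPM in WT animals. The 13 Müller glia and progenitor markers summed to 481 to 798 CPM in Tbr1 KO animals and 350 to 484 CPM in WT animals. By mean the largest part of that sum was Dkk3, at 265 ± 21.8 CPM in Tbr1 KO animals and 158 ± 26.9 CPM in WT animals. The mean log2 level of the list was 4.09 ± 0.579 in Tbr1 KO animals and 3.46 ± 0.680 in WT animals (SD, n = 4 each, exact two-sided permutation p = 0.257). Of the 13 Müller glia and progenitor markers, all tested, 2 were called as higher in Tbr1 KO animals, beside 0.086% of all tested genes. They were Clu and Dkk3 (edgeR adjusted p 0.0465 and 0.0495). The list was chosen with earlier results of these data known, so 2 of 13 beside that share is a description and not a test. Sfrp2 of the same list lay the other way with no overlap, at 2.60 to 10.8 CPM in Tbr1 KO animals and 15.3 to 21.4 CPM in WT animals, a log2 fold change of -1.44 ± 0.41 (SE) that did not pass. The 5 horizontal cell markers summed to 33.4 to 43.7 CPM in Tbr1 KO animals and 17.9 to 27.8 CPM in WT animals, with Lhx1 at 0 throughout. Most of that sum was Calb1, at 22.9 to 40.5 CPM in Tbr1 KO animals and 8.68 to 21.0 CPM in WT animals, and the mean log2 level of the list overlapped (exact two-sided permutation p = 0.171). The 9 non-neural markers summed to 12.7 to 41.8 CPM in Tbr1 KO animals and 24.6 to 72.1 CPM in WT animals. Single markers in this paragraph were named after their values were seen.

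Levels of the markers and of the 9 genes can be set side by side but were not separated. With the photoreceptor marker level as a covariate, the log2 fold change of Nfia was -1.32 ± 0.66 (SE), where it was 0.11 ± 0.70 without it, and that of Bcl11b was -0.99 ± 0.50. Nr4a2 was at -5.80 ± 2.30 and Sox5 at -4.01 ± 1.51 in that fit, against -1.71 ± 1.86 and -1.49 ± 1.53 without the covariate. Reln stood at 0.53 ± 0.18. All 5 had edgeR adjusted p of 0.763 or more there. The part of other cells in the levels of Nfia, Sox5, Nr4a2 and Fezf2 was not tested.

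**Figure D2:**
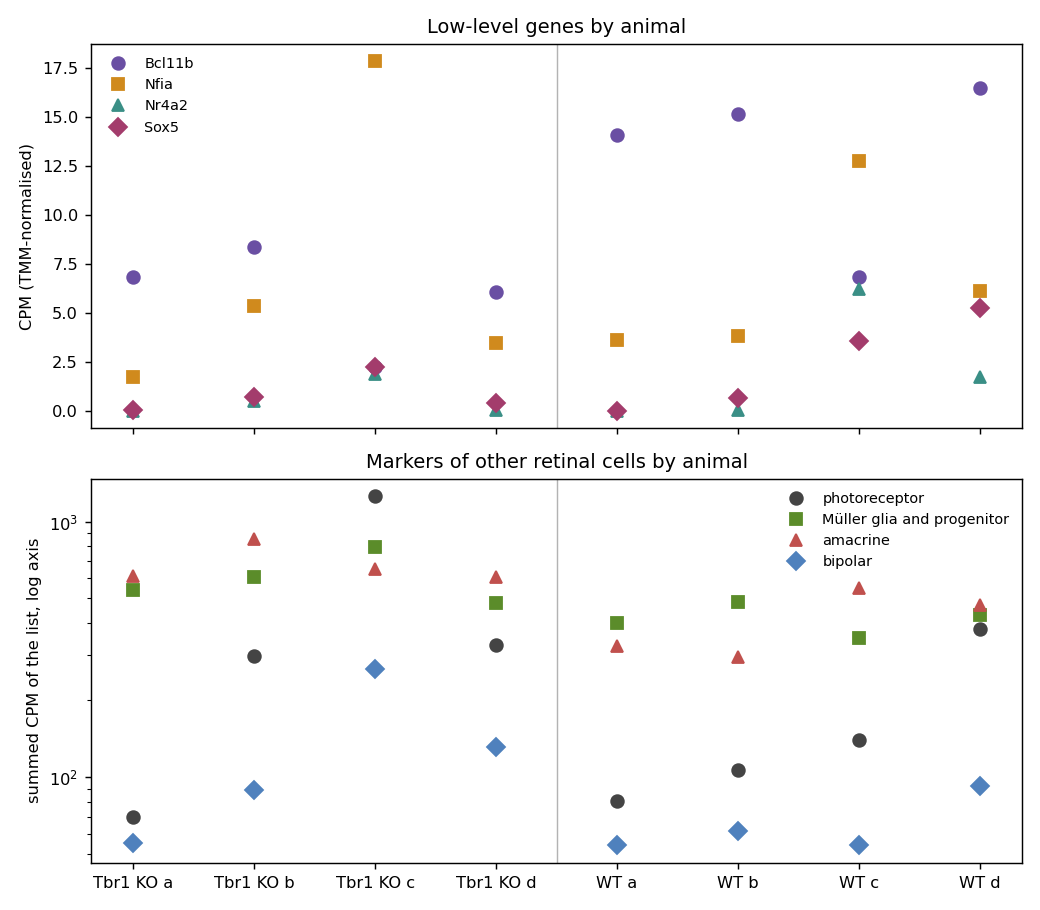
Top, level of Bcl11b, Nfia, Nr4a2 and Sox5 in TMM-normalised CPM in each animal, Tbr1 KO on the left and WT on the right. Bottom, summed CPM of 4 marker lists in the same animals on a log axis. Nfia is highest in animal c of each genotype, at 17.8 CPM in Tbr1 KO and 12.7 CPM in WT. Photoreceptor, bipolar and Müller glia and progenitor markers are highest in Tbr1 KO animal c, at 1258, 265 and 798 CPM.

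Rorb, a retinoid-related orphan receptor, was the most abundant gene of the set per length. Its mean deviation from the mean of all 8 animals on the log2 scale (0.19) was the smallest of the tested members. That measure also holds any difference between genotypes. Within genotypes Reln was as steady, with an SD of 15.9% and 17.0% of the mean in Tbr1 KO and WT animals, against 16.4% and 21.5% for Rorb. Rorb lies on chromosome 19, 18930605 to 19111196, on the minus strand. Its level was 279, 294, 383 and 275 CPM in Tbr1 KO animals a to d and 411, 261, 274 and 316 CPM in WT animals a to d. The highest and the lowest animal were both controls. For Rorb the log2 fold change was -0.04 ± 0.16 (SE) with a 95% interval of -0.38 to 0.31, and the edgeR adjusted p was 0.995. Pools of the same animal were within 0.21 of each other on the log2 scale.

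Its paralogue Rora had the smallest p among the relatives of the set. Rora was at 241, 303, 288 and 343 CPM in Tbr1 KO animals a to d and 369, 491, 452 and 441 CPM in WT animals a to d, and every mutant lay below every control. The log2 fold change was -0.58 ± 0.13 (SE), with an edgeR adjusted p of 0.137 and an exact two-sided permutation p of 0.0286, the smallest that 4 against 4 animals allow. It had the same sign in all 23 alternative fits and passed the threshold in 3 of them. These were DESeq2 (adjusted p 0.00347), edgeR with libraries as units (0.0270) and limma-voom with the animal as a random block (0.0343). Libraries as units counts pools of 1 animal as separate replicates, which they are not. Of the 8 fits that left out 1 animal, 0 passed (edgeR adjusted p 0.0816 to 0.362). Over all relatives of the 9 genes, 0 of 15 tested passed in edgeR and DESeq2 called 1, with a median log2 fold change of 0.13. Of the 15, 1 had an unadjusted p under 0.05, beside 7.09% of all tested genes. Rora was the 1 of 15 with no overlap, beside 5.06% of all tested genes.

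**Figure D3:**
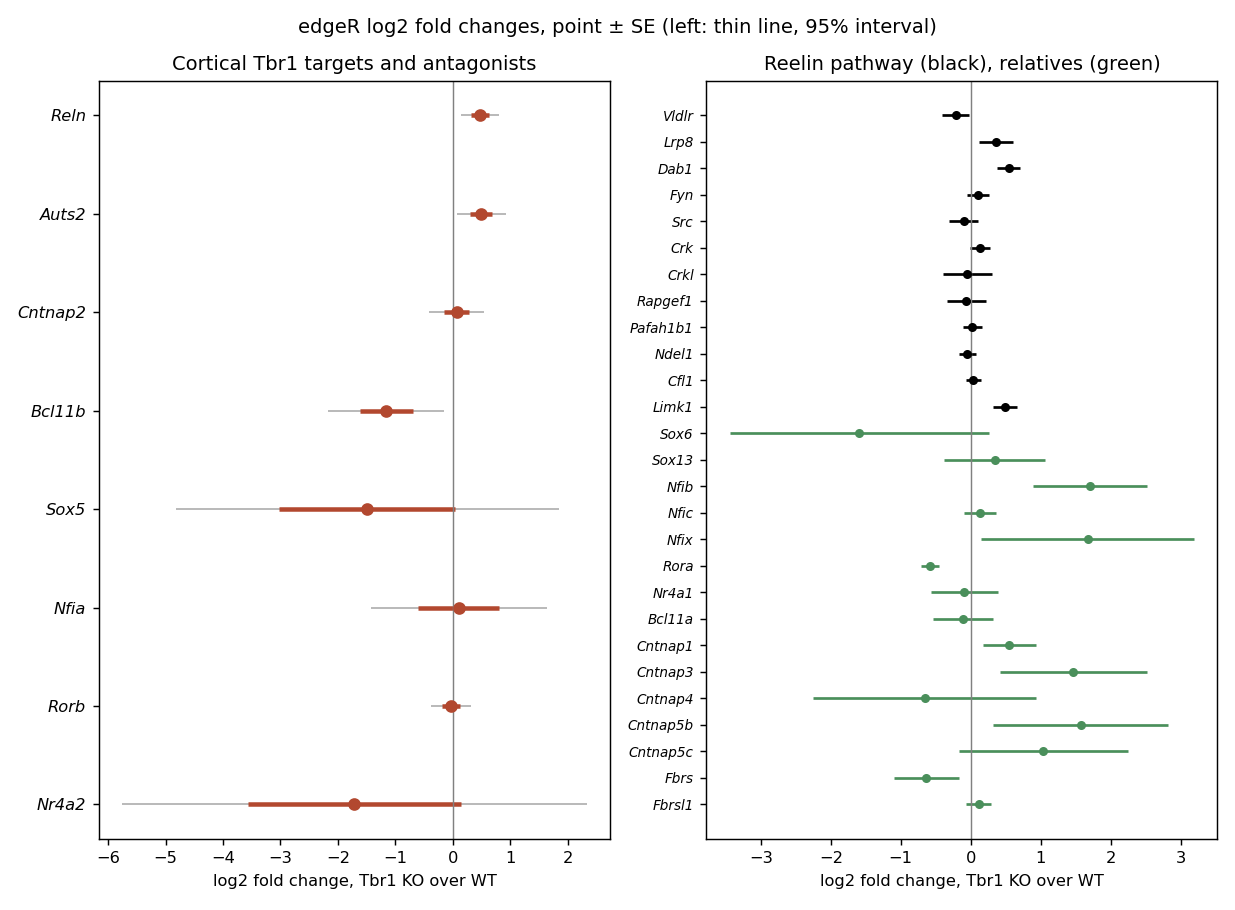
Log2 fold change of Tbr1 KO over WT (horizontal axes) from edgeR for the 8 tested genes of the set (left, points ± SE with 95% intervals as thin lines) and for the reelin pathway and the relatives of the set (right, points ± SE, black and green). Reln, Auts2 and Bcl11b have intervals that leave out 0, and Rora at -0.58 ± 0.13 is the relative with the smallest p.

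Other regulators of cortical projection neurons were read in the same fit. Of 32 listed genes 23 were tested and 0 passed in edgeR or DESeq2, with a median log2 fold change of 0.02. Of the 23, 4 had an unadjusted p under 0.05, beside 7.09% of all tested genes. No overlap between genotypes was seen for 5 of the 23, beside 5.06% of all tested genes. Lmo4, a LIM-only transcriptional adaptor, was at 7.02 to 13.2 CPM in Tbr1 KO animals and 18.0 to 21.9 CPM in WT animals, a log2 fold change of -1.07 ± 0.29 (SE) with an edgeR adjusted p of 0.285. Pou3f2, a POU factor of upper-layer neurons, was at 8.09 to 11.3 CPM in Tbr1 KO animals and 1.63 to 6.13 CPM in WT animals, a log2 fold change of 1.64 ± 0.54 with an edgeR adjusted p of 0.465. Neurod1 and Nxph4 varied with the animal, at 52.0 ± 60.9 and 7.97 ± 9.22 CPM in Tbr1 KO animals and 15.9 ± 12.6 and 2.22 ± 1.98 CPM in WT animals (SD, n = 4 each).

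Pax6 and Mef2c also had no overlap in that list and were named after their values were seen. Pax6, an eye-field factor, was at 260 to 296 CPM in Tbr1 KO animals and 227 to 238 CPM in WT animals, a log2 fold change of 0.25 ± 0.10 with an edgeR adjusted p of 0.575. Mef2c, a MADS-box factor, was at 0.741 to 2.33 CPM in Tbr1 KO animals and 2.42 to 5.40 CPM in WT animals. Emx1 and Emx2, which mark the cortical lineage and were likewise named afterwards, were at 0 in all libraries.

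Partners of Tbr1 and their joint targets gave no call. Of 7 tested, Tbr1 itself included, 0 passed in edgeR or DESeq2. The 1 with an unadjusted p under 0.05 was Tbr1, the gene altered in the mutants, beside 7.09% of all tested genes. All 7 had negative log2 fold changes, beside 6990 of all 13957 tested genes, and the median was -0.32. Cask, the scaffold that enters the nucleus with Tbr1, was at 366 ± 57.7 CPM in Tbr1 KO animals and 476 ± 180 CPM in WT animals (SD, n = 4 each). Grin2b, an NMDA receptor subunit gene that the complex activates in cortex, was at 42.5 ± 13.6 CPM in Tbr1 KO animals and 53.1 ± 18.4 CPM in WT animals. Foxp1, a forkhead factor, was at 4.54 ± 2.65 CPM in Tbr1 KO animals and 8.22 ± 2.47 CPM in WT animals.

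Genes whose profile over the 8 animals was most like that of a member were found by the mean absolute difference of centred log2 CPM over 10593 other genes (10594 for Nr4a2 and Sox5). Nearest to Reln was Rgs7bp, at a mean difference of 0.09, where Reln itself deviated from its mean by 0.26. Nearest to Auts2 was Tubgcp6 (0.07, against a deviation of 0.29), and nearest to Rorb was Nme6 (0.07, against 0.19). For Bcl11b the closest gene, Scyl2, was at 0.26 against a deviation of 0.64, and for Nr4a2 one of the 2 closest was Nfia, at 0.61 against 1.16. No test was made of these likenesses.

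Leaving out 1 animal at a time showed which values rested on single animals. Reln stayed between 0.36 and 0.60 on the log2 scale, Auts2 between 0.34 and 0.62, and Bcl11b between -1.38 and -0.88. Sox5 ran from -2.65 without Tbr1 KO animal c to -0.73 without WT animal d, and Nr4a2 from -3.40 without Tbr1 KO animal c to 0.04 without WT animal c. Nfia was at -0.90 without Tbr1 KO animal c and at 0.65 without WT animal c. No member passed the threshold in any of these fits.

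**Figure D4:**
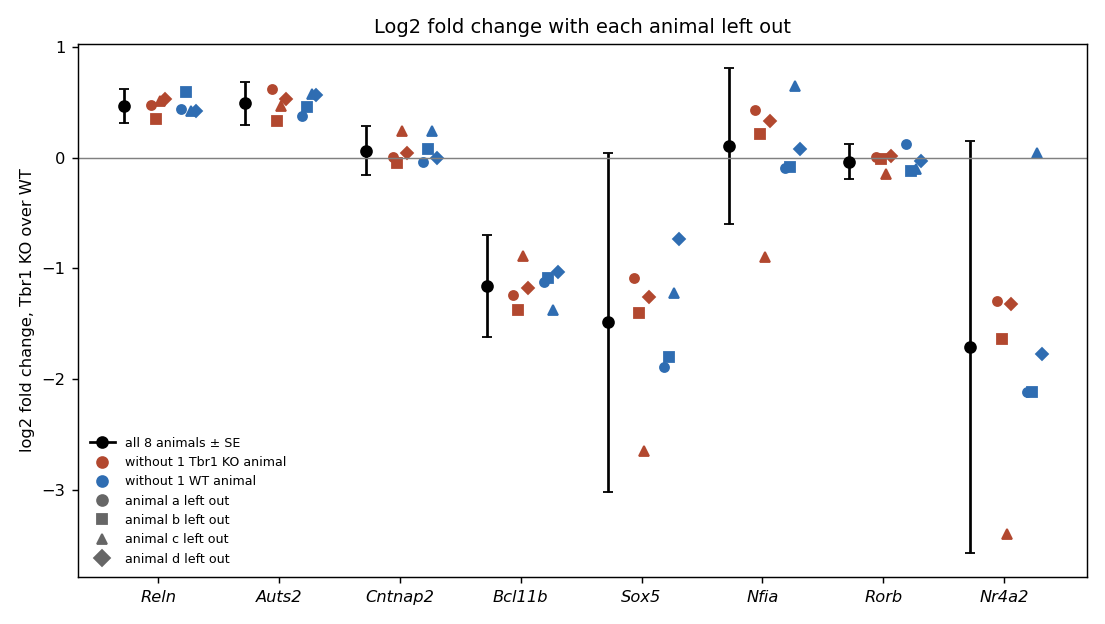
Log2 fold change of Tbr1 KO over WT (vertical axis) for the 8 tested genes with all 8 animals (black, ± SE) and with 1 Tbr1 KO animal (red) or 1 WT animal (blue) left out, with the shape naming the animal. Reln and Auts2 stay above 0 and Bcl11b below it in all 8 fits, while Nfia and Nr4a2 cross 0.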

How the data were processed

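RNA was sequenced from pools of 100 sorted cells, with Smart-seq2 and Nextera XT libraries read from 1 end, per the labels' protocols. The authors deposited raw counts of reads, listed by gene symbol in 1 table for each library. Trimmomatic 0.32, TopHat2 2.0.10 and HTSeq 0.6.1 with mm10 (GRCm38) are named in the submitters' processing notes, and no source used here gives the annotation counted over or how strand was treated. Lines that name no gene, 36.1% to 39.9% of listed reads, were left out. No molecular identifiers are described, so intervals and floors cover counting error only.

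Counts were summed per animal, as named in the series' design text, filtered with filterByExpr (13957 genes left), TMM-scaled and tested with edgeR 4.0.16 (robust quasi-likelihood test, R 4.3.3), with Benjamini-Hochberg adjustment over all tested genes and a threshold of 0.05. The standard error is the log2 fold change over the root of its F statistic. Exact permutation tests used log2 CPM with a prior count of 0.5. The fit was run on simulated counts with known changes. Those changes were all larger than that of Reln, so the run does not show how often such a shift would be called. Alternatives used DESeq2 1.42.0 and limma 3.58.1, other scalings, filters, units and covariates, and left out each animal. Plots were drawn with matplotlib 3.10.9.

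Positions and exon lengths came from GENCODE M21, the GRCm38 annotation. All 9 genes are named, and up to 4 from each related list, called ones first, then those with the largest log2 fold change at 5 CPM or more. Single markers of ganglion cells and of other cells fall outside that rule. The genes, lists and tests were chosen with earlier results of these data known. Some genes of the related lists are counted in them but not reported here by name.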

Additional observations from a re-analysis of the deposited data

Results flagged for a closer look

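In 34 groups of 4 animals, made of the 9 genes and 8 marker lists in each genotype where values varied, 2 held an animal far from the other 3, and chance gives about 1 in 20 such groups. WT animal b had 160 CPM of Reln, where the other WT animals had 115 to 120 CPM. WT animal d had 0.0628 CPM of Fezf2, from 2 counts, where the other WT animals had 0. With 0 in all the others any count would be flagged, so the rate of 1 in 20 does not apply to Fezf2.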

How the results depend on the processing

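Of 23 alternatives, 21 planned and 2 chosen after seeing the data (Müller and amacrine covariates), none called a member, and Reln, Auts2, Bcl11b and Sox5 kept their sign wherever they were fitted. Cntnap2 changed sign in 2 fits that left out 1 animal (range -0.046 to 0.25), Nr4a2 in 1 (-3.40 to 0.042), Rorb in 3 (-0.15 to 0.12) and Nfia in 3 (-0.90 to 0.65). Rorb also gave 0.015 with libraries as units, 0.0058 in limma-voom with a random animal block and 0.059 with the replicate block. Nfia gave -0.34 in limma-voom, -0.058 with libraries as units, -0.36 with the random animal block, -0.43 with the replicate block, -1.32 with the photoreceptor, -1.17 with the Müller and -0.11 with the amacrine covariate.

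Over all genes the count of calls was 40, against 156 in DESeq2, 84 with libraries as units, 74 with the random animal block, 26 with the Müller covariate and 17 to 44 without 1 animal. Relatives of the set gave 1 call, Rora, in DESeq2, with libraries as units and with the random animal block. The Cntnap2 complex gave 0 calls in limma-voom, with 1 library per animal, with the replicate block and with each of the 3 covariates, and 0 to 1 without 1 animal. The causes were not tested. Library numbers did not pair the samples (correlations of deviations -0.03 to 0.14 over 5 pairs, with 4 of 10 libraries closest to their own number), and the replicate block gave 42 calls. Fezf2 could be fitted only with no filter. At 0.0866 to 0.349 CPM for 3 counts, absence of Fezf2, Sox5 and Nr4a2 in single libraries was not detectable below that level.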
